A study of Mus musculus with 4 samples.

Results

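Fibrillar and basement membrane collagens were followed on 4 microarrays of sorted mouse alveolar type II epithelial cells (AEC2), the surfactant-producing progenitor cells of the lung alveolus. The set held 10 genes: Col1a1, Col1a2, Col3a1, Col5a1 and Col6a1 of the interstitial matrix, and Col4a1, Col4a2, Col4a3, Col4a4 and Col18a1 of basement membranes. Every probe set annotated with 1 of these symbols alone was taken, which gave 21 probe sets among the 34958 of the array that carried 1 symbol. The groups were TLR4-/- cells 4 days after bleomycin, WT cells 4 days after bleomycin, TLR4-/- cells from untreated lungs and WT cells from untreated lungs. Each group was 1 array, hybridised with RNA of cells pooled from 4 to 5 mouse lungs. No difference between groups therefore had a replicate check, and the sources used here do not give age, sex, strain, bleomycin dose or the targeted allele. The series addressed how hyaluronan and the receptor TLR4 bear on renewal of alveolar stem cells and on lung fibrosis.

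Collagens are triple helices of alpha chains, each chain the product of its own gene. Type I and III collagens assemble into the tensile fibrils that accumulate in lung fibrosis and are made mainly by fibroblasts, whereas type IV collagen forms a sheet-like network under epithelium and endothelium. The chains encoded by Col4a1 and Col4a2 occur together in nearly all basement membranes, and those of Col4a3 and Col4a4 join the Col4a5 chain in the basement membranes of the alveolus and the glomerulus. Bleomycin is a DNA-damaging drug that injures the lung epithelium and is widely used to model fibrosis.

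Values are log2 signals, and differences of 1 are 2-fold. AEC2 markers were bright: the surfactant gene Sftpc was at 14.05, 14.06, 14.02 and 14.03 in TLR4-/- bleomycin, WT bleomycin, TLR4-/- untreated and WT untreated cells. These values lay near the highest signals of the arrays (14.48 to 14.55), so their steadiness does not measure purity. Ager, a marker of alveolar type I cells, was bright too, at 12.82 to 13.04. All 19 AEC2 marker genes on the array lay above the median gene. After bleomycin 2 of them (Lgi3 and Hc) fell, against 2.53% of all genes tested. Of 4 probe sets for Tlr4, 1 had lower signals in TLR4-/- cells, with gaps above the spread of 0.266 log2 estimated for a pair of arrays, at 6.39 against 9.07 in WT cells after bleomycin and 7.24 against 8.87 in WT cells when untreated. In the other 3 the TLR4-/- signals were higher than the WT signals or within that spread. All 3 sex-linked marker genes past the filter differed with treatment. The Y-linked genes Eif2s3y and Kdm5d rose after bleomycin by 2.02 ± 0.15 and 1.15 ± 0.16, and Xist, expressed from the inactive X chromosome, fell by 0.94 ± 0.18 (SE, limma adjusted p = 8.23e-06, 0.000665 and 0.00555). Both Y-linked genes lay under the filter floor of 7.05 on both untreated arrays and passed it only through the bleomycin arrays. Any difference in the share of male and female mice between bleomycin and untreated pools cannot be told apart from bleomycin in the differences below. Its part in them was not tested.

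Genes of fibrillar collagens I and III were higher after bleomycin in both genotypes, while no collagen of the basement membrane passed the test. In pooled cells, more cells of a type and more RNA per cell cannot be told apart. Of the 10 genes, 7 had an average over their probe sets above the median gene, the filter used, and a limma model with bleomycin and genotype as factors was fitted to all 9097 genes past it. In that fit 2 of the 7 rose after bleomycin, Col1a1 and Col6a1, against 7.18% of all genes tested. None of the 7 fell, against 2.53% of all genes. The averages of Col1a2, Col3a1 and Col5a1 lay below the median gene, because each had 1 brighter probe set averaged with dim ones. Fitted probe set by probe set, 16 of the 21 collagen probe sets passed the filter and covered all 10 genes. Among these, 4 rose (3.78% of all 17479 probe sets) and 0 fell (1.3%), the 4 being both probe sets of Col1a1 and 1 each of Col1a2 and Col3a1. All collagen calls were lost when either bleomycin array was left out. A fit with bleomycin alone then had 1 bleomycin array and took its error from the gap between the untreated TLR4-/- and WT arrays. It called almost no gene or probe set of any kind, so the loss was not particular to the collagens.

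**Figure D1:**
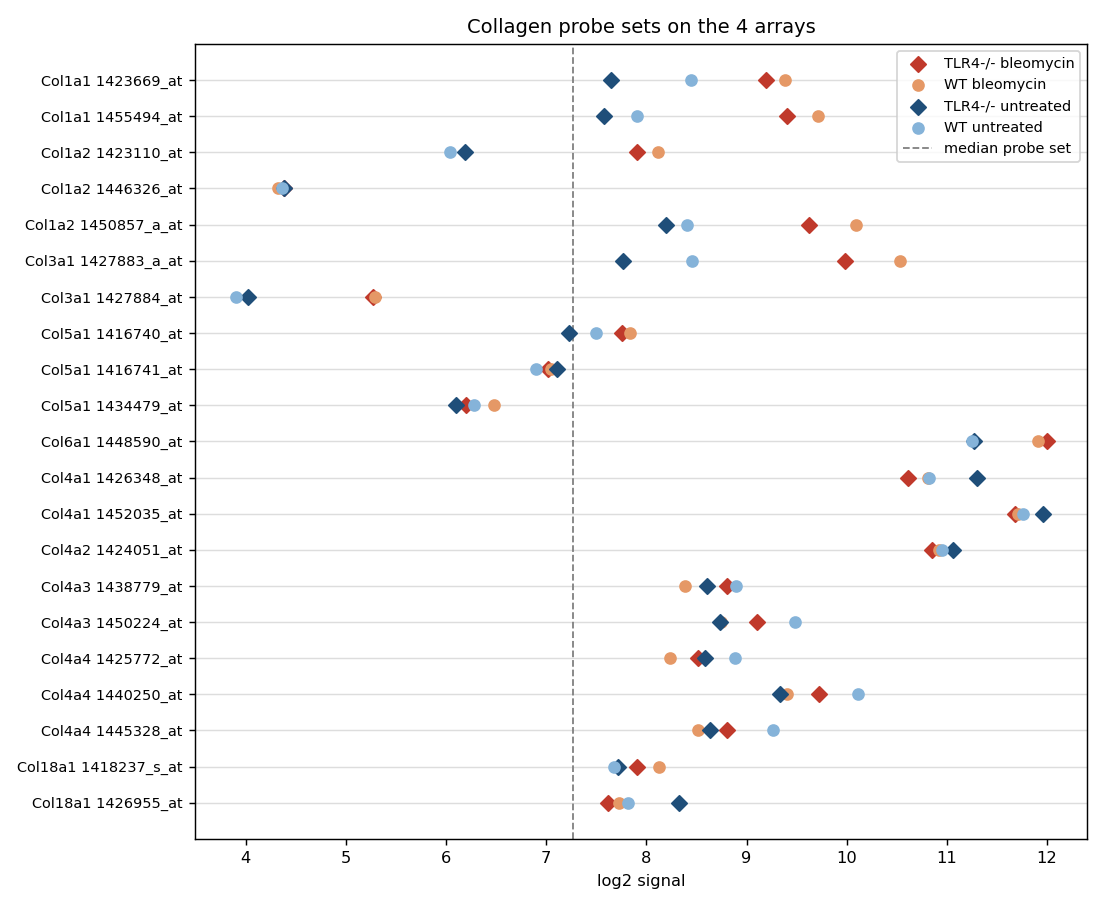
Log2 signal of each of the 21 collagen probe sets (rows) on the 4 arrays. The horizontal axis is the log2 signal, each symbol is 1 array, and the dashed line marks the median probe set at 7.27. Both bleomycin symbols lie to the right of both untreated symbols for Col1a1, Col3a1, Col6a1 and the 2 brighter probe sets of Col1a2, and for 1 probe set each of Col5a1 and Col18a1.

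Col1a1 encodes the major chain of type I collagen and was read by 2 probe sets. The probe set with the larger difference was at 9.40 in TLR4-/- bleomycin and 9.71 in WT bleomycin cells, against 7.58 in TLR4-/- untreated and 7.91 in WT untreated cells. The second was at 9.19 and 9.38 in TLR4-/- and WT bleomycin cells, against 7.65 and 8.45 in TLR4-/- and WT untreated cells. Both bleomycin arrays were thus above both untreated arrays at each probe set, although the call of the second was lost without the filter (limma adjusted p = 0.0688, against 0.00835 with it). Averaged over the probe sets, Col1a1 was 3.21-fold higher after bleomycin in TLR4-/- and 2.57-fold higher in WT cells. It rose by 1.52 ± 0.16 across genotypes (SE, limma adjusted p = 9.09e-05, higher in 2 of 2 genotypes). It was the only collagen of the 7 genes at 2-fold or more after bleomycin, in TLR4-/- cells (2.45% of all genes) and in WT cells (2.55%).

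Col1a2 encodes the second chain of type I collagen. Its brightest probe set was at 9.62 in TLR4-/- bleomycin and 10.09 in WT bleomycin cells, against 8.20 in TLR4-/- untreated and 8.41 in WT untreated cells. This probe set was 2.67-fold higher after bleomycin in TLR4-/- and 3.20-fold higher in WT cells, and rose by 1.55 ± 0.18 (SE, limma adjusted p = 0.00138). A dimmer probe set of the gene moved with it, at 7.91 in TLR4-/- bleomycin and 8.12 in WT bleomycin cells against 6.19 in TLR4-/- untreated and 6.04 in WT untreated cells. The last one was dim on every array, between 4.32 and 4.38. Averaging with that probe set took Col1a2 under the filter, which is why the gene average had no test.

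Col3a1, the gene of type III collagen, which co-assembles with type I, showed the largest bleomycin effect among the 16 probe sets tested. Its bright probe set was at 9.98 in TLR4-/- bleomycin and 10.53 in WT bleomycin cells, against 7.77 in TLR4-/- untreated and 8.46 in WT untreated cells. This amounted to 4.64-fold in TLR4-/- and 4.20-fold in WT cells, and the probe set rose by 2.14 ± 0.18 (SE, limma adjusted p = 0.000329). A dim probe set of Col3a1 gave 5.27 and 5.29 in TLR4-/- and WT bleomycin cells, against 4.02 and 3.90 in TLR4-/- and WT untreated cells. It went the same way, although a fold change at such low signal has an uncertain size. Counted by probe set, 4 of the 16 past the filter were at least 2-fold higher after bleomycin in TLR4-/- cells (2.6% of all probe sets) and 3 in WT cells (2.53%), all of them from Col1a1, Col1a2 and Col3a1.

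The upstream sequences of Col1a2, Col3a1 and Col6a1 are shown because the bleomycin arrays exceeded the untreated ones for these genes and RefSeq gives each a single start. Each line is the 150 bases before the annotated start (RefSeq, GRCm38.p6), 5′ to 3′ on the gene's strand, with CCAAT boxes (CCAAT or ATTGG) and TATA boxes (TATAAA or TTTATA) in capitals. They lie at chr6:4505468-4505617 (plus strand), chr1:45311388-45311537 (plus strand) and chr10:76726045-76726194 (minus strand).
Col1a2: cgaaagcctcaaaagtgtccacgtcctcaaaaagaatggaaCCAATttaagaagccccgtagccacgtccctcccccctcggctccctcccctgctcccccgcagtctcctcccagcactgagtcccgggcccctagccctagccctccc
Col3a1: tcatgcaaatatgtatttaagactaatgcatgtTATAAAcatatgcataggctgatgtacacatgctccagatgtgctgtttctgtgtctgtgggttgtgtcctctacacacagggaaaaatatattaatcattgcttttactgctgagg
Col6a1: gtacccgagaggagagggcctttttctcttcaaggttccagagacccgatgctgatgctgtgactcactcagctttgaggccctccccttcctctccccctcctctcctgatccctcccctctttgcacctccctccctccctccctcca

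The 3 promoters shared no motif of those searched. In the 250 bases before the start, Col1a2 held 1 CCAAT box at -109 and 2 GC boxes (GGGCGG or CCGCCC), Col3a1 held 1 TATA box at -117 and no CCAAT or GC box, and Col6a1 held none of the 3. Among 32851 mouse promoter windows of this length 33.8% held a CCAAT box, 12.4% a TATA box and 32.7% a GC box, on either strand. Windows were matched for 8 of the 10 genes. The bases before the start were GC-poor in Col3a1 (35.2%) and GC-rich in Col4a1 (74.4%), Col4a2 (73.6%) and Col5a1 (76.4%).

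Col6a1, whose chain forms beaded microfilaments around cells, showed a smaller difference. It was at 12.00 in TLR4-/- bleomycin and 11.91 in WT bleomycin cells, against 11.27 in TLR4-/- untreated and 11.25 in WT untreated cells. Its single probe set was 1.66-fold higher in TLR4-/- and 1.58-fold higher in WT cells. The gene rose by 0.69 ± 0.16 (SE, limma adjusted p = 0.0145), but the call did not hold among the probe sets (0.0554), without the filter (0.0657) or with the brightest probe set of each gene (0.0675, all adjusted p from limma). Its genomic neighbour Col6a2, which encodes a partner chain, rose by 1.02 ± 0.15 (SE, limma adjusted p = 0.0012).

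Col5a1, whose product starts fibrils and limits their diameter, was not called. Its brightest probe set was at 7.76 in TLR4-/- bleomycin and 7.84 in WT bleomycin cells, against 7.23 in TLR4-/- untreated and 7.50 in WT untreated cells. The bleomycin effect was 0.44 ± 0.18 (SE, limma adjusted p = 0.197). The other 2 probe sets lay under the filter and differed by -0.09 and 0.11 after bleomycin in TLR4-/- cells and by 0.14 and 0.20 in WT cells.

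**Figure D2:**
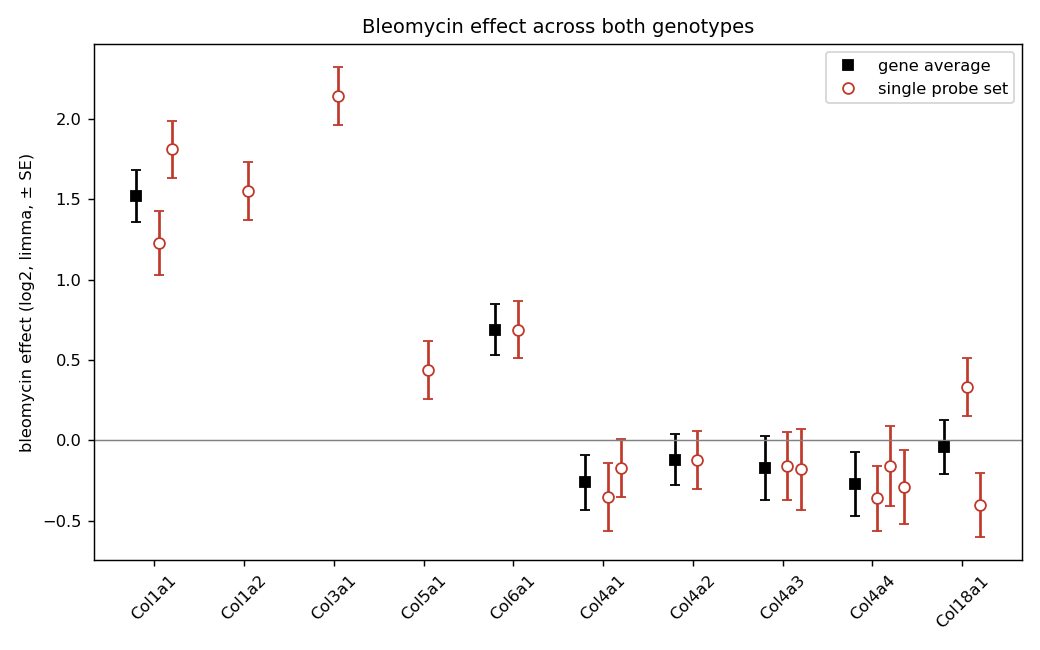
Bleomycin effect across both genotypes (log2, vertical axis) for each collagen gene. Black squares are gene averages, open red circles single probe sets past the filter, and bars are limma standard errors. Col1a1, Col1a2 and Col3a1 lie between 1.23 and 2.14, Col6a1 at 0.69, and the basement membrane collagens between -0.40 and 0.33.

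Col4a1 and Col4a2, neighbouring genes that encode the chains of the common type IV network, were bright on all arrays and not called. Col4a1 averaged 11.15 in TLR4-/- bleomycin and 11.26 in WT bleomycin cells, against 11.63 in TLR4-/- untreated and 11.29 in WT untreated cells. The TLR4-/- untreated array was the highest and the TLR4-/- bleomycin array the lowest. The Col4a1 bleomycin effect was -0.26 ± 0.17 (SE, limma adjusted p = 0.391), made of -0.49 in TLR4-/- and -0.03 in WT cells. Col4a2 was at 10.85 and 10.92 in TLR4-/- and WT bleomycin cells, against 11.06 and 10.95 in TLR4-/- and WT untreated cells. The Col4a2 effect was -0.12 ± 0.16 (SE, limma adjusted p = 0.695).

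Col4a3 and Col4a4, also neighbours, showed responses of opposite sign between the genotypes. Col4a3 averaged 8.95 in TLR4-/- bleomycin cells against 8.67 in TLR4-/- untreated cells, and 8.57 in WT bleomycin cells against 9.19 in WT untreated cells. Col4a4 averaged 9.02 in TLR4-/- bleomycin cells against 8.85 in TLR4-/- untreated cells, and 8.72 in WT bleomycin cells against 9.42 in WT untreated cells. For both genes the WT untreated array was the highest and the WT bleomycin array the lowest. Differences after bleomycin were 0.28 in TLR4-/- and -0.62 in WT cells for Col4a3, and 0.16 and -0.70 in TLR4-/- and WT cells for Col4a4.

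All 5 probe sets of Col4a3 and Col4a4 were lower after bleomycin in WT cells, by 0.52 to 0.74. In TLR4-/- cells 4 of them were higher, by 0.17 to 0.40, and 1 of Col4a4 differed by -0.07. The difference between the responses was 0.90 for Col4a3 and 0.86 for Col4a4, under 2-fold, a size reached by 0 of the 7 collagen genes and by 1.52% of all genes in either direction. No interaction could be tested with 1 array per group. The additive fit counts such a difference as error and averages the genotypes, so its effects of -0.17 ± 0.20 for Col4a3 and -0.27 ± 0.20 for Col4a4 (SE, limma adjusted p = 0.675 and 0.461) say little about either genotype. Col4a5, the gene of the partner chain, was at 8.01 in TLR4-/- bleomycin and 8.22 in WT bleomycin cells, against 8.13 in TLR4-/- untreated and 8.07 in WT untreated cells.

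**Figure D3:**
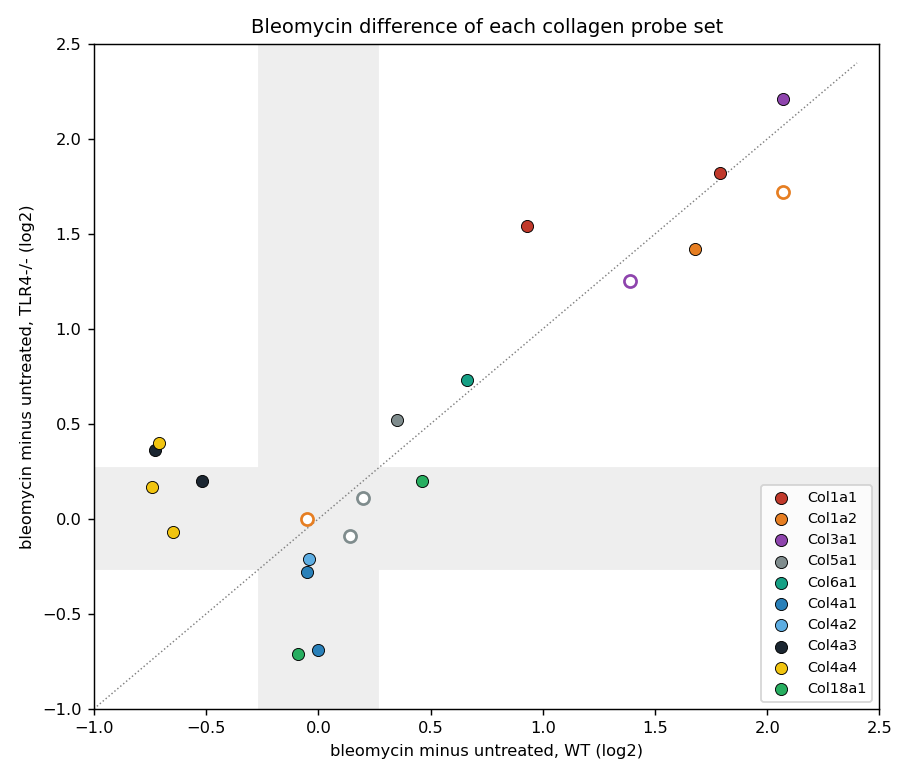
Bleomycin minus untreated log2 difference of each collagen probe set in WT cells (horizontal axis) and in TLR4-/- cells (vertical axis). Filled points passed the filter, open points did not, the dotted line marks equal differences and grey bands the estimated spread of 0.266 between 2 arrays. Col1a1, the 2 brighter probe sets of Col1a2, Col3a1 and Col6a1 lie at the upper right, the dimmest Col1a2 probe set lies near 0, and Col4a3 and Col4a4 lie left of 0 with TLR4-/- differences from -0.07 to 0.40.

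Col18a1, which encodes a basement membrane proteoglycan that yields the fragment endostatin, had 2 probe sets that disagreed. One was at 7.91 and 8.13 in TLR4-/- and WT bleomycin cells, against 7.72 and 7.68 in TLR4-/- and WT untreated cells. The other was at 7.62 and 7.73 in TLR4-/- and WT bleomycin cells, against 8.33 and 7.82 in TLR4-/- and WT untreated cells. The first was thus higher and the second lower after bleomycin, and the gene average gave -0.04 ± 0.17 (SE, limma adjusted p = 0.932). RefSeq lists 2 separate starts for this gene, and which transcripts each probe set reads was not examined.

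Between genotypes, none of the 7 collagen genes reached 2-fold. In untreated cells Col1a1 was 1.48-fold lower in TLR4-/- than in WT, Col4a4 1.48-fold lower and Col4a3 1.43-fold lower, while Col4a1 was 1.27-fold higher. Of all genes, 1.12% were at 2-fold in either direction in that comparison. The bright Col3a1 probe set was 1.62-fold lower in TLR4-/- untreated cells. After bleomycin, when 0.0989% of all genes were at 2-fold, Col4a3 was 1.30-fold and Col4a4 1.23-fold higher in TLR4-/- than in WT, and Col1a1 was 1.19-fold lower. The bright probe sets of Col1a2 and Col3a1 were 1.39-fold and 1.47-fold lower. Across both treatments limma called 0 of the 7 genes and 0 of the 16 probe sets for genotype, as it did 0% of all features. Without adjustment, 1 gene (Col1a1) and 2 probe sets (1 each of Col1a1 and Col3a1) had a p under 0.05, as did 9.0% of all genes and 7.7% of all probe sets. The genotype effects behind them were -0.41 for the Col1a1 gene, and -0.49 and -0.62 for the Col1a1 and Col3a1 probe sets.

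Other collagens were mostly dim. Of 30 further collagen genes on the array 6 passed the filter, and 2 of these rose and 0 fell, Col6a2 and the fibril-associated Col12a1 (0.57 ± 0.15, SE, limma adjusted p = 0.0367). The list median was 0.17, against 0.04 over all genes tested, of which 7.18% rose and 2.53% fell. Col5a2, the neighbour of Col3a1, was under the filter at 5.83 in TLR4-/- bleomycin and 5.70 in WT bleomycin cells, against 4.98 in TLR4-/- untreated and 4.93 in WT untreated cells.

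Genes that modify and secrete collagen moved little as a group. Of 17 past the filter (30 on the array), 2 rose and 1 fell, with a list median of 0.06. The shares over all genes tested were 7.18% and 2.53%. Plod2, a lysyl hydroxylase that prepares stable cross-links, was at 7.84 in TLR4-/- bleomycin and 7.63 in WT bleomycin cells, against 6.54 in TLR4-/- untreated and 6.36 in WT untreated cells. It rose by 1.28 ± 0.15 (SE, limma adjusted p = 0.000231). On both untreated arrays Plod2 lay under the filter floor of 7.05, so it passed only through the bleomycin arrays. Pcolce, which enhances removal of the procollagen C-propeptide, rose by 0.91 ± 0.16 (SE, limma adjusted p = 0.00401). P4ha1, a catalytic subunit of prolyl 4-hydroxylase, fell by 0.62 ± 0.18 (SE, limma adjusted p = 0.0446). The collagen chaperone Serpinh1 was at 10.91 in TLR4-/- bleomycin and 10.06 in WT bleomycin cells, against 10.69 in TLR4-/- untreated and 10.12 in WT untreated cells. It was higher on both TLR4-/- arrays, but not called for genotype (0.71 ± 0.16, SE, limma adjusted p = 0.202). The cross-linking oxidase Lox lay under the filter at 4.94 to 5.22.

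Among interstitial matrix genes, 2 of 7 past the filter rose (7.18% of all genes tested), with a list median of 0.47. The small proteoglycan Bgn, which binds type I collagen, was at 9.18 in TLR4-/- bleomycin and 9.34 in WT bleomycin cells, against 7.09 in TLR4-/- untreated and 7.34 in WT untreated cells. It rose by 2.05 ± 0.16 (SE, limma adjusted p = 7.89e-06), and the matricellular gene Ccn2 rose by 1.16 ± 0.17 (SE, limma adjusted p = 0.000957). Partners of type IV collagen in the basement membrane rose in 1 of 10 and fell in 1 (median 0.18). The shares over all genes tested, 7.18% and 2.53%, leave these counts no result about the list. Agrn, a heparan sulfate proteoglycan, rose by 1.27 ± 0.17 (SE, limma adjusted p = 0.000546), and the epithelial laminin chain Lama3 fell by 0.59 ± 0.16 (SE, limma adjusted p = 0.0327). Of 3 collagen receptors past the filter the endocytic receptor Mrc2 fell by 0.58 ± 0.16 (SE, limma adjusted p = 0.0352), and none rose. Over all genes tested 2.53% fell and 7.18% rose, and with 3 genes these counts are no result about the receptors.

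Markers of other cells differed between the same arrays. Mesothelial markers averaged 7.16 in TLR4-/- bleomycin and 7.29 in WT bleomycin cells, against 6.07 in TLR4-/- untreated and 6.72 in WT untreated cells. Of 11 on the array 4 passed the filter (Gpm6a, Msln, Upk3b and Krt19), and all 4 rose, against 7.18% of all genes tested. The means of the mesothelial, fibroblast and interstitial matrix lists put the 4 arrays in the same order as Col1a1, highest in WT bleomycin and lowest in TLR4-/- untreated cells. The fibroblast and interstitial matrix lists share some genes, among them Dcn. How many of all genes have this order was not counted. Whether the shared order bears on the source of Col1a1 was not tested. Leukocyte and macrophage markers averaged 8.95 in TLR4-/- bleomycin and 8.69 in WT bleomycin cells, against 7.49 in TLR4-/- untreated and 7.33 in WT untreated cells. Of those past the filter 13 of 14 rose, against 7.18% of all genes tested. Some passed the filter only through the bleomycin arrays, which favours genes that rise. C1qa was at 6.17 in TLR4-/- untreated and 5.86 in WT untreated cells, under the floor of 7.05. Among mesothelial markers, Gpm6a and Upk3b were under it in TLR4-/- untreated (5.67 and 6.75) but not in WT untreated cells (7.82 and 8.26). Of 15 fibroblast markers only Dcn and Inmt passed the filter, and 0 rose. Dcn, which encodes a proteoglycan that binds collagen fibrils, differed by 0.57 ± 0.17 (SE, limma adjusted p = 0.0545). The mean over the 15 was 5.93 and 6.04 in TLR4-/- and WT bleomycin cells, against 5.66 and 5.74 in TLR4-/- and WT untreated cells. The fibroblast receptor gene Pdgfra was dim at 5.56 to 5.81. The fibroblast matrix gene Dpt, under the filter, was higher by 1.61 in TLR4-/- and 1.43 in WT cells, the largest rise of the list. Other members went the other way, among them Gli1, which differed by -0.51 in TLR4-/- and -0.07 in WT cells. Thy1 differed by -1.25 in TLR4-/- and 0.06 in WT cells.

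Pericyte and smooth muscle markers (1 of 10 past the filter) and endothelial markers (3 of 15) held 0 calls. Their means lay between 5.92 and 6.08 and between 6.12 and 6.27. Markers of alveolar type I cells, which also express Col4a3 and Col4a4, averaged 9.67 and 9.62 in TLR4-/- and WT bleomycin cells. Their means were 9.13 and 8.89 in TLR4-/- and WT untreated cells. Of these markers 4 of 11 past the filter rose, against 7.18% of all genes tested. They were lowest on the WT untreated array, where Col4a3 and Col4a4 were highest. The part of these cells in the collagen differences was not tested.

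**Figure D4:**
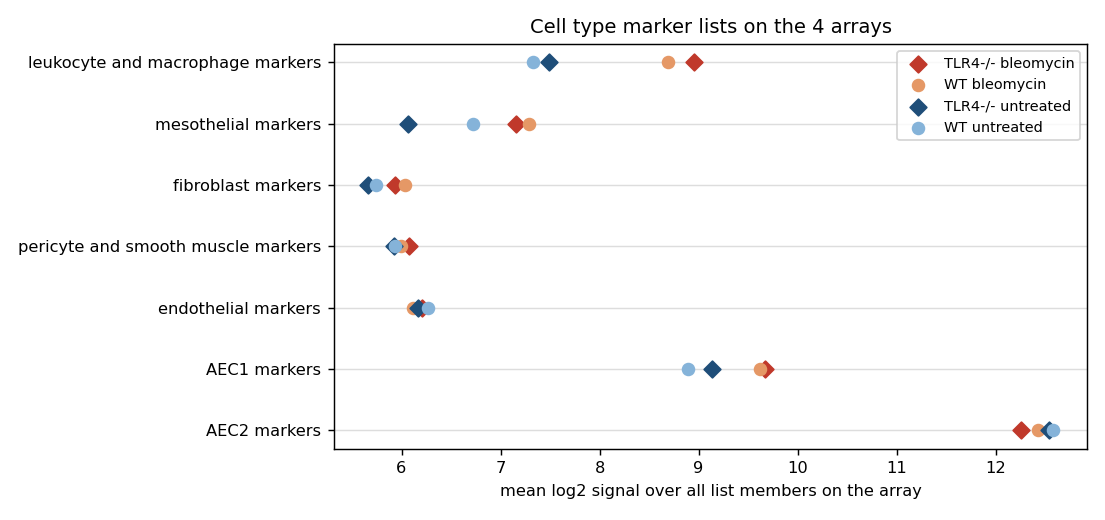
Mean log2 signal over all members of 7 cell type marker lists (rows) on the 4 arrays. The horizontal axis is the mean log2 signal and each symbol is 1 array. Leukocyte, mesothelial, type I cell, fibroblast and pericyte means are higher on both bleomycin arrays than on both untreated arrays. The gap is smaller for fibroblast (5.93 and 6.04 against 5.66 and 5.74) and pericyte markers (6.08 and 5.99 against 5.92 and 5.93). Within the pericyte list the largest rise was in Notch3, under the filter (8.28 and 7.11 against 6.22 and 5.86). Other pericyte markers were lower on the bleomycin arrays, among them Myh11 (5.75 and 5.74 against 6.03 and 6.24). Each pair gives TLR4-/- and then WT cells.

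The genes whose centred values over the 4 arrays lay closest to those of Col1a1, the one collagen gene at 2-fold past the filter, were the mesothelial gene Msln (distance 0.225 log2 units, the root of the summed squared differences), the prostacyclin synthase gene Ptgis (0.274), the lactoferrin gene Ltf (0.326), the complement inhibitor gene Serping1 (0.358) and the cytokine gene Il1b (0.363). With 4 arrays this is a description only.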

How the data were processed

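The authors deposited log2 signals per probe set for 4 Affymetrix 3′ arrays. The log2 scale was read from the values, and the software and normalization are not given in the sources used here. Per the labels' protocols, commercial kits served for cDNA amplification and biotin labelling. The array medians lay between 6.93 and 6.98. Symbols came from the platform annotation, updated through Entrez identifiers (34754 of 34958 matched). Probe sets of 1 symbol were averaged per gene, and the 9097 of 18194 genes with a mean above the median (7.05) were tested. Additive fits used limma 3.58.1 (R 4.3.3, lmFit and eBayes, trend and robust off, 1 residual degree of freedom), with Benjamini-Hochberg adjustment over all features tested and calls under 0.05. The same fit ran on the 17479 of 34958 probe sets above 7.27. The prior had 11.4 degrees of freedom for genes and 9.0 for probe sets, and gave the spread between 2 arrays (0.228 and 0.266). SE and p come from how far the genotypes' responses differ, since there were no replicates. Scripts were tested on simulated data. Named genes were the members and, from most lists, up to 4 called genes of largest effect or, with none called, the 2 of largest effect (Dcn and Inmt). The rule was not applied to the type I cell, mesothelial, leukocyte, pericyte and endothelial lists, which are given as counts and means. Further genes were chosen after their values were seen (Serpinh1, Lox, Col5a2, Col4a5, Pdgfra, Dpt, Thy1, Gli1, C1qa, Gpm6a, Upk3b, Notch3, Myh11, Ager, Sftpc). Members and lists were chosen with earlier results of these data known. Precision is limited by the number of arrays.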

Additional observations from a re-analysis of the deposited data

Results flagged for a closer look

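The bleomycin responses of the genotypes had opposite signs in 3 of the 7 collagen genes past the filter, with 1 array per group and no test of the difference. Of all genes tested, 51.7% were above 0 in TLR4-/- and 59.5% in WT cells. How many of all genes had opposite signs was not counted, so the 3 of 7 cannot be set against a background. For Col4a3 the TLR4-/- response exceeded the WT response by 0.90, and for Col4a4 by 0.86. Both probe sets of Col4a3 and 2 of 3 of Col4a4 had opposite signs. For Col18a1 the difference was -0.44, from 2 probe sets that each kept 1 sign in both genotypes (0.20 in TLR4-/- and 0.46 in WT cells for one, -0.71 and -0.09 in TLR4-/- and WT cells for the other), so that the opposite signs arose only in their average.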

How the results depend on the processing

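No called value changed sign in any alternative run, and beside the calls lost when 1 array was left out, the calls lost were that of Col6a1, as given above, and that of the Col1a1 probe set with the smaller difference, at a limma adjusted p of 0.0688 without the filter. Collagen genes called for bleomycin numbered 2 in the fit reported, 3 with the brightest probe set per gene, 3 by single probe set, 3 without the filter, 2 after quantile normalization, centring or with a trend, and 0 to 2 when 1 array was left out. Collagen probe sets called numbered 4, 5 without the filter (1 of Col1a1, 2 of Col1a2 and 2 of Col3a1), and 0 to 4 when 1 array was left out, alternatives chosen after seeing the data. At 2-fold, 1 collagen gene in WT cells became 2 with the brightest probe set per gene and 3 without the filter or by single probe set, and in TLR4-/- cells 1 became 3 in each of these. Responses differing by 2-fold numbered 0, but 2 (Col4a3 and Col4a4) with the brightest probe set and by single probe set. Of the other values, 129 kept their side of the threshold or moved by less than the spread between 2 arrays, and 9 moved by more. Over all genes 653 rose and 230 fell in the fit reported, 279 and 62 with the brightest probe set, 319 and 48 without the filter, and 378 and 106 after centring. No paired analysis was possible because each group had 1 array. Signals were not set against background, since the sources used here give no detection calls, so folds of dim probe sets have an unknown error.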
